A study of Mus musculus with 8 samples.

Results

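The translation initiation factor genes are 40 of the 18193 genes that the array names by a single symbol. They were chosen by symbol, as every Eif1 to Eif6 gene except the Eif2ak kinases and the sex-linked Eif2s3x, Eif2s3y and Eif1ax, and for each the probe set of highest mean over the 8 arrays was used. Expression was measured in spleen cells of leukemic mice with either of 2 forms of CBFb-SMMHC, a leukemia fusion of the RUNX partner CBFb with a smooth muscle myosin tail. The full-length mice carried CBFb-SMMHC and were sampled 2 months after the mutagen ENU, while the truncated mice carried CBFb-SMMHCd179-221, a form without residues 179 to 221, and were taken 3 weeks after birth. Each genotype had 2 animals, of which animal 1 gave a single array and animal 2 gave 3. The sample labels call both kinds of mice chimeras, the series text calls the full-length mice knock-in, and the share of spleen cells with a fusion is not given. Genotype, mutagen and age went together and cannot be told apart. Whether an animal's arrays came from separate extractions is not in the labels.

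Initiation is the step at which the small ribosomal subunit, loaded with the initiator tRNA by eIF2, is brought to the capped end of an mRNA and scans to the start codon. The eIF4F complex binds the cap and unwinds the leader, eIF3 holds the small subunit to it, eIF2B recharges eIF2 with GTP, and eIF5 and eIF5B complete start codon selection and subunit joining. Cells adjust the process by phosphorylating eIF2 under stress, which blocks eIF2B, and through mTOR, which releases eIF4E from its binding proteins. Several of these genes are known targets of MYC, which binds the E-box CACGTG.

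Promoter windows of RefSeq genes on GRCm38.p6 were at hand for 31 of the 40 genes. The letters CACGTG, which read the same on both strands, stood within 250 bases before a start of 8 of these 31 genes (25.8%), against 6.86% of all 27025 genes with a window. Some genes had several windows, and by window the shares were 23.3% of 43 and 6.02% of 32851. The background held all genes, expressed or not, and genes of like expression were not compared. The 8 genes were Eif1b, Eif3f, Eif3k, Eif4a1, Eif4e, Eif4h, Eif5a and Eif5a2. The RUNX letters TGTGGT, or ACCACA on the other strand, stood in the windows of 3 genes (9.68%), Eif3a, Eif5a2 and Eif5b, against 15.9% of all genes. The 120 bases before the start are shown for the 4 E-box genes whose genotype difference, given further on, kept 1 sign under every alternative processing. They are written 5′ to 3′ on the gene's own strand, with the E-box in capitals.
Eif4e, chr3:138527148-138527267, plus strand: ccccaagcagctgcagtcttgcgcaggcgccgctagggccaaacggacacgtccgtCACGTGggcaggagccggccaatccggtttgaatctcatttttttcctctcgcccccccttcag
Eif4h, chr5:134639410-134639529, minus strand: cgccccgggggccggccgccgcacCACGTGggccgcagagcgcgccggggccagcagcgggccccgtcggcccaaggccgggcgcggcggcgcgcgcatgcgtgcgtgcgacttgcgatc
Eif3f, chr7:108934295-108934414, plus strand: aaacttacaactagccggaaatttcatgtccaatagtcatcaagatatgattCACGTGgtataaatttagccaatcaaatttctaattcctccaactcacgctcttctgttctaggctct
Eif3k, chr7:28981889-28982008, minus strand: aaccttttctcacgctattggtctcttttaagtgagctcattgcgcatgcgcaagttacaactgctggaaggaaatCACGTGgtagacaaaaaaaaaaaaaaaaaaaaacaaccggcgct
The E-box began 64 bases before the start of Eif4e, 96 before that of Eif4h, 68 before that of Eif3f and 44 before that of Eif3k. The window of Eif4e held a second E-box 228 bases before the start. Of the 8 E-box genes, 4 had lower and 4 had higher mean expression with the truncated fusion, with a median log2 difference of -0.07, and the 22 tested genes whose windows lacked the letters had a median of -0.12. A match of letters is a description and says nothing of binding.

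The 8 arrays had nearly equal medians over all probe sets, between 4.71 and 4.78 on the log2 scale, but they did not group by animal. Array 1 of full-length animal 2 correlated with the array of animal 1 at 0.989 and with arrays 2 and 3 of its own animal at 0.954 and 0.954, over all probe sets. These 2 like arrays, one from each full-length mouse, are called the first full-length pair. In the truncated mice the same comparison gave 0.987 against 0.976 and 0.976. Of 16 measured erythroid markers, 15 were higher in it, with a median of 10.73 in animal 1 and 10.36 in array 1 of animal 2, against 8.22 and 8.21 in arrays 2 and 3. The truncated arrays had erythroid medians of 9.21, 9.47, 8.38 and 8.40. Of 9 primary granule markers, 8 were lower in that first pair, with medians of 4.92 and 4.77 against 9.40 and 9.49, and the truncated arrays had 9.36, 9.20, 10.63 and 10.61. All 12 later neutrophil markers were higher by genotype in the truncated mice, with array medians from 6.91 to 9.41 in the full-length and from 11.42 to 11.78 in the truncated arrays. The 12 monocyte markers gave 6.0 to 6.95 against 8.20 to 8.34. The mast cell median was 5.29 and 5.21 in the first full-length pair and 11.45 and 11.50 in the other, against 7.24 to 9.78 in the truncated arrays. The correlations between arrays thus go against the labelled animals, and every animal mean, SD and limma p below rests on those labels. The part of these cell mixtures in the values below was not tested, beyond leaving out the first full-length pair. In bulk samples fewer cells of a type and less RNA per cell cannot be told apart.

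The initiation factor genes had a median log2 expression of 9.78 and mostly small genotype differences. Of the 40 genes, 39 passed the filter on dim genes, by which at least 2 of the 4 animals had to lie above the median of all probe sets, and 27 of them had lower and 12 had higher animal means with the truncated fusion. Their median log2 difference, truncated minus full-length, was -0.12, beside -0.01 over all 11387 genes tested, and the lower genes were 69.2% of the factors and 51.6% of all genes. The size of the difference exceeded 0.5 for 3 factors (7.69%), Eif4e3, Eif3e and Eif2b3, against 26.3% of all genes, and it exceeded 1 only for Eif4e3. With limma on the animal means, 0 of the 39 factors and 0% of all genes passed an adjusted p of 0.05. At an unadjusted p of 0.05 in limma, 1 factor was higher and 0 were lower, beside a background of 8.82% of all genes higher and 5.3% lower. All 4 truncated arrays lay above all 4 full-length arrays for 1 factor, Eif4e3 (background 10.3%), and below them for 5, Eif3d, Eif3e, Eif3f, Eif4enif1 and Eif4h (background 8.76%). The 5 lower genes are close to the background share, and the other counts are below it. Array 1 of each animal alone was fitted as 2 arrays against 2. That fit gave 5 factors past an adjusted p of 0.05 in limma, Eif4e3, Eif2b2, Eif3e, Eif4g3 and Eif2b3. Over all genes 3004 (26.4%) passed. Leaving out the first full-length pair of arrays, a choice made after the data were seen, left 1 full-length animal. Of the factors 20 were then lower and 19 higher, with a median of -0.02.

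**Figure D1:**
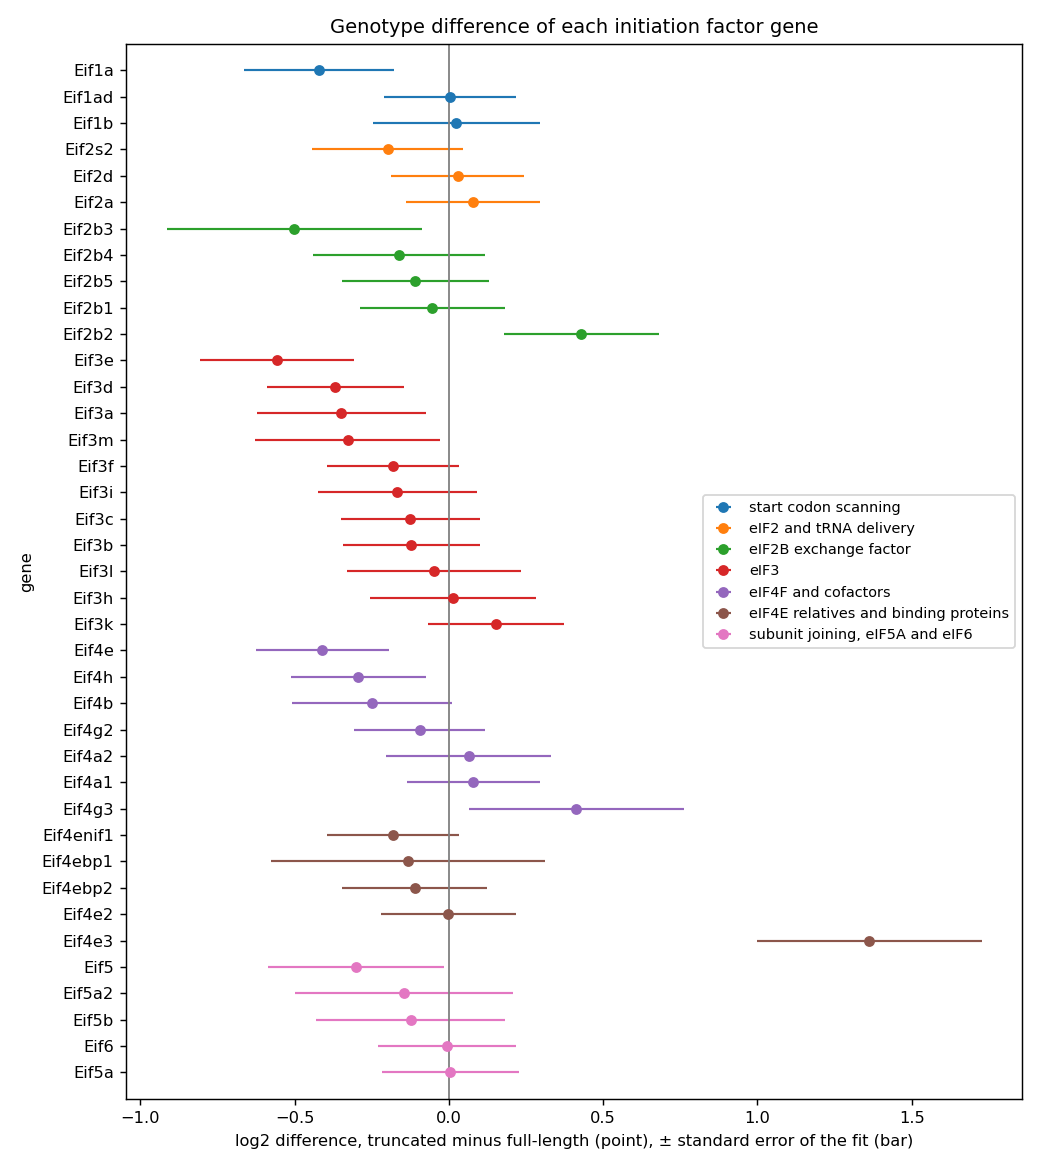
Log2 difference, truncated minus full-length, of the 39 tested initiation factor genes (points, 2 animals per genotype), with the standard error of the limma fit as bars, coloured and ordered by factor group. Of the 39 points 27 lie left of 0, and Eif4e3, at 1.36, stands apart to the right.

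The start codon scanning factors showed no shared direction, with differences of -0.42 for Eif1a, 0.00 for Eif1ad and 0.02 for Eif1b. Array values are given below on the log2 scale, with animal 1 first and then arrays 1, 2 and 3 of animal 2. Eif1a, which opens the scanning complex together with eIF1, read 8.97, 9.0, 8.45 and 8.49 in the full-length arrays and 8.28, 8.80, 8.41 and 8.31 in the truncated ones. The first full-length pair was the highest and the genotypes overlapped, through array 1 of truncated animal 2. Its mean was 8.81 ± 0.23 (SD, n = 2 animals) against 8.39 ± 0.16, and limma gave an adjusted p of 0.542. Eif1b, a close relative of Eif1, read 9.50, 9.28, 9.57 and 9.66 against 9.80, 9.47, 9.10 and 9.19. Its truncated arrays spanned the full-length ones on both sides. Eif1ad, a protein related to eIF1A in sequence, had means of 8.88 and 8.89. Eif1 itself was not analysed here.

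Of the factors that deliver the initiator tRNA, the beta subunit of eIF2, Eif2s2, was lower by 0.20 by the probe set used. Eif2a and Eif2d, which can load tRNA without eIF2, were higher by 0.08 and 0.03 by theirs. Eif2s2 read 11.32, 11.29, 10.78 and 10.81 in the full-length arrays and 11.04, 10.95, 10.78 and 10.79 in the truncated ones. The genotype difference was -0.01 in arrays 2 and 3 of animal 2 and -0.31 in the arrays numbered 1. Eif2a read 8.46, 8.46, 8.50 and 8.52 against 8.48, 8.26, 8.77 and 8.88. The full-length arrays lay within the range of the truncated ones. The probe sets of Eif2s2 disagreed, with 6 above the median of all probe sets and differences from -1.18 to 0.03, of which the dimmest probe sets had the most negative. Those of Eif2a (-0.29 to 0.08) and Eif2d (-0.39 to 0.06) above that median also disagreed in sign. The median of this group was 0.03 by the probe sets used and -0.08 by the mean of all probe sets. Eif2s1, which carries the regulatory phosphorylation site, was not analysed here.

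The 5 subunits of eIF2B, the exchange factor that recharges eIF2, split, with Eif2b3, Eif2b4, Eif2b5 and Eif2b1 lower (-0.50, -0.16, -0.11 and -0.05) and Eif2b2 higher (0.43). Eif2b3, a subunit of its catalytic part, read 8.46, 8.21, 7.13 and 7.27 in the full-length arrays and 7.84, 7.53, 6.96 and 7.0 in the truncated ones. The arrays numbered 1 were the high ones in both genotypes, and the step between the full-length pairs (1.14) was larger than the genotype difference. Its means were 8.0 ± 0.66 and 7.50 ± 0.48 (SD, n = 2 animals), and limma gave an adjusted p of 0.695. With array 1 of each animal alone the difference was -0.65 (adjusted p = 0.0327 in limma), and without the first full-length pair it was 0.30. Eif2b2, of the regulatory part, read 8.97, 8.62, 9.28 and 9.38 against 9.67, 9.35, 9.13 and 9.27. Its first full-length pair was low, and the remaining 6 arrays overlapped. The difference was 0.71 with the arrays numbered 1 (adjusted p = 0.0215 in limma), -0.13 in arrays 2 and 3, and 0.13 without the first full-length pair. Its probe set ends in x_at and may match related sequences, and its 3 probe sets above the median gave 0.13 to 0.43.

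**Figure D2:**
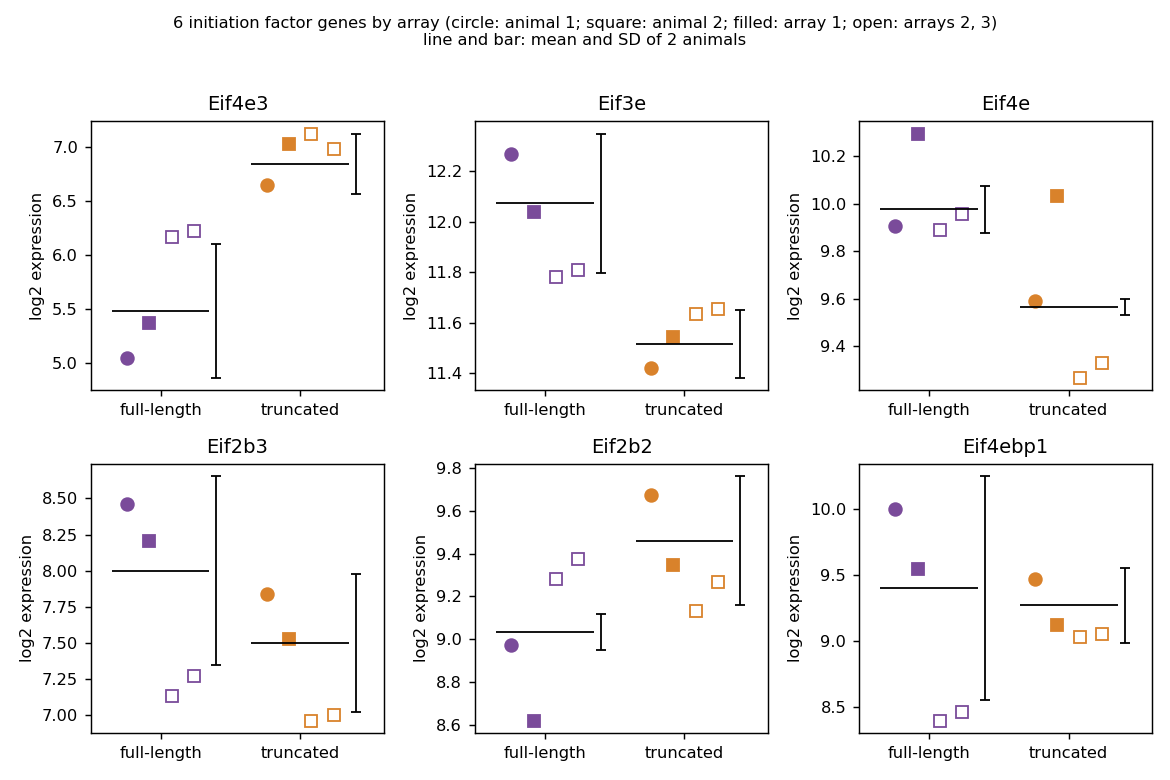
Log2 expression of Eif4e3, Eif3e, Eif4e, Eif2b3, Eif2b2 and Eif4ebp1 in each of the 8 arrays (circles animal 1, squares animal 2, filled symbols array 1, open symbols arrays 2 and 3), with the mean and SD of the 2 animals of a genotype as line and bar. The genotypes are apart for Eif4e3 and Eif3e, while for Eif2b3 and Eif4ebp1 the filled and open full-length symbols are further from each other than the genotype means.

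The eIF3 subunits, which scaffold the small subunit on the mRNA, were mostly lower. Of 11 subunits 9 had lower means with the truncated fusion, with a median of -0.17. Eif3e read 12.27, 12.04, 11.78 and 11.81 in the full-length arrays and 11.42, 11.54, 11.63 and 11.65 in the truncated ones. All truncated arrays lay below all full-length arrays, and they were closest in arrays 2 and 3. Its means were 12.07 ± 0.28 and 11.52 ± 0.13 (SD, n = 2 animals), a difference of -0.56 ± 0.25 (SE). The adjusted p in limma was 0.415, and with the arrays numbered 1 it was 0.0245 (difference -0.67). The difference was -0.36 without full-length animal 1, -0.28 without the first full-length pair and -0.15 in arrays 2 and 3. Its 3 probe sets above the median gave -0.56 to -0.28. Eif3d, the subunit that can itself bind the cap of some mRNAs, read 10.73, 10.79, 10.49 and 10.60 against 10.21, 10.29, 10.45 and 10.48. The groups did not overlap, and the nearest arrays were numbers 2 and 3. The difference was -0.37 (adjusted p = 0.558 in limma), with -0.51 in the arrays numbered 1 and -0.08 in arrays 2 and 3. Eif3f read 12.10, 11.94, 12.01 and 12.07 in the full-length arrays and 11.91, 11.75, 11.86 and 11.88 in the truncated ones. Its difference was small, -0.18 (adjusted p = 0.803 in limma), and nearly the same in both sets of arrays, -0.19 and -0.17.

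Among the other subunits, Eif3a, the largest of the core, differed by -0.35 and Eif3m by -0.33, and in both the array of truncated animal 1 was the lowest. Eif3i (-0.17), Eif3c (-0.13), Eif3b (-0.12) and Eif3l (-0.05) were lower by less than 0.2. Eif3h (0.01) and Eif3k (0.15) were the 2 with higher means. In the arrays numbered 1, 10 of the 11 subunits were lower, with a median of -0.23, whereas in arrays 2 and 3 only 5 were, with a median of 0.09. Without the first full-length pair the median of the eIF3 genes was -0.17, against -0.17 with all arrays. The subunits Eif3j1 and Eif3j2 share probe sets, which gave -0.44, -0.23 and -0.19, and were left out.

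The cap-binding complex eIF4F and its cofactors had no common direction, with 4 of 7 genes lower and a median of -0.09. Eif4e, the cap-binding subunit, read 9.90, 10.29, 9.89 and 9.96 in the full-length arrays and 9.59, 10.03, 9.27 and 9.33 in the truncated ones. Array 1 of animal 2 was the highest in each genotype, and the truncated one of these reached into the full-length range. Its means were 9.98 ± 0.10 and 9.57 ± 0.03 (SD, n = 2 animals), a difference of -0.41 ± 0.21 (SE), and limma gave an adjusted p of 0.498. In contrast to the eIF3 genes, the difference by this probe set was larger in arrays 2 and 3 (-0.62) than in the arrays numbered 1 (-0.29). A second probe set, at a mean of 7.65, read 8.05, 7.86, 7.60 and 7.62 against 7.47, 7.91, 7.38 and 7.29. By it the difference was similar in both sets of arrays. Eif4h, which assists the helicase eIF4A, read 11.76, 11.54, 11.62 and 11.61 against 11.44, 11.44, 11.26 and 11.28. The genotypes did not overlap, and the difference was -0.29 (adjusted p = 0.656 in limma). Its probe set ends in x_at, and its 5 probe sets above the median gave -0.29 to 0.05. Eif4b, also a helicase cofactor, differed by -0.25 and Eif4g2, a relative of the scaffold that acts without the cap, by -0.09.

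Eif4g3, a scaffold of the complex, had a higher mean by 0.41, from the brightest of its probe sets. Its 4 probe sets above the median of all probe sets disagreed in sign, from -0.30 to 0.47. It read 7.86, 8.16, 8.94 and 9.02 in the full-length arrays and 8.54, 8.85, 8.84 and 8.85 in the truncated ones. The first full-length pair was low, and arrays 2 and 3 of full-length animal 2 lay above every truncated array. The difference was 0.69 in the arrays numbered 1 (adjusted p = 0.0250 in limma), -0.14 in arrays 2 and 3 and -0.29 without the first full-length pair, so its direction rested on that pair. The helicases Eif4a1 and Eif4a2 differed by 0.08 and 0.06. Eif4a3, the related helicase of the exon junction complex, did not pass the filter: its single-gene probe set read 4.58 to 5.19, and a brighter one that also matches another gene gave a difference of -0.06. Eif4g1, the main scaffold, was not analysed here.

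Among the relatives and binding proteins of eIF4E, Eif4e3 had the largest difference of all initiation factor genes. Eif4e3, a cap-binding relative of eIF4E, read 5.04, 5.36, 6.17 and 6.22 in the full-length arrays. It read 6.64, 7.02, 7.11 and 6.98 in the truncated ones. All truncated arrays were higher, and the first full-length pair was the lowest. Its means were 5.48 ± 0.62 and 6.84 ± 0.28 (SD, n = 2 animals), 2.57-fold higher, a log2 difference of 1.36 ± 0.36 (SE). It had an unadjusted p of 0.0124 and an adjusted p of 0.202 in limma. A second probe set of the gene, at a mean of 5.99, gave 1.57. With the array number as a block and the animal as a random block, the difference was 1.29. It passed (adjusted p = 0.0426 in limma), as did 5.26% of all genes. Without full-length animal 2, which left 1 full-length animal, the difference was 1.80. With the arrays numbered 1 it was 1.63 (adjusted p = 5.86e-06 in limma), in a fit where 26.4% of all genes passed. The 2 arrays of a genotype in that fit correlated at 0.989 and 0.987. Without the first full-length pair the difference was 0.65. Its sign was the same in all of these.

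By the probe sets used, the 4 other genes of this group were lower or level. Eif4enif1, a shuttling protein that carries eIF4E into the nucleus, read 8.68, 8.79, 8.66 and 8.69 against 8.57, 8.62, 8.38 and 8.36. The groups did not overlap, at a difference of -0.18 (adjusted p = 0.803 in limma). Eif4ebp1, the mTOR-controlled repressor of eIF4E, had a genotype difference of -0.13 and, after Eif4e3, the widest range over the 8 arrays, 1.61. It read 9.998, 9.54, 8.39 and 8.46 in the full-length arrays and 9.47, 9.12, 9.03 and 9.05 in the truncated ones. The full-length arrays lay on both sides of the truncated ones, so that the difference was -0.48 in the arrays numbered 1 and 0.61 in arrays 2 and 3. Its step between the full-length pairs was 1.34, in the direction of the erythroid markers. The probe set used ends in x_at and may match related sequences. A second one, at a mean of 8.79, read 9.46, 9.37, 8.34 and 8.27 against 9.21, 8.79, 8.42 and 8.46. It kept the step, but in arrays 2 and 3 its genotypes were much closer. Eif4ebp2, the related repressor, had the opposite step, -0.71, and a genotype difference of -0.11, by its brightest probe set. Its 4 probe sets above the median of all probe sets disagreed in sign, from -0.11 to 0.29. A dimmer one read 8.17, 7.63, 7.57 and 7.69 in the full-length arrays, without that step. Eif4e2, a weaker cap-binding relative, differed by 0.00. Its 4 probe sets above the median also disagreed, from -0.35 to 0.34. The probe set of Eif4ebp3 is shared with another gene and was left out.

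The factors of subunit joining and the later-acting eIF5A and eIF6 were level or slightly lower. Eif5, which makes eIF2 hydrolyse its GTP, read 10.72, 10.80, 10.76 and 10.79 in the full-length arrays and 10.14, 10.42, 10.90 and 10.96 in the truncated ones. By the probe set used, the full-length arrays were tight, and the truncated arrays lay on both sides of them. Its difference of -0.30 (adjusted p = 0.744 in limma) was -0.48 in the arrays numbered 1 and 0.16 in arrays 2 and 3. All 5 of its probe sets above the median were lower by the animal means, from -0.43 to -0.09. The full-length arrays were not tight in all of them. The probe set at a mean of 10.29 read 11.07, 10.76, 9.58 and 9.56 against 10.63, 10.32, 10.20 and 10.19. Eif5a2, the paralog of Eif5a, was dim and read 5.49, 5.21, 4.69 and 4.27 against 5.22, 5.30, 4.28 and 4.55. The arrays numbered 1 were higher in both genotypes, by 0.87 and 0.85, and the genotype difference was -0.15. Eif5b, the joining GTPase, differed by -0.12, Eif6, which keeps the subunits apart, by -0.01 and Eif5a by 0.00.

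**Figure D3:**
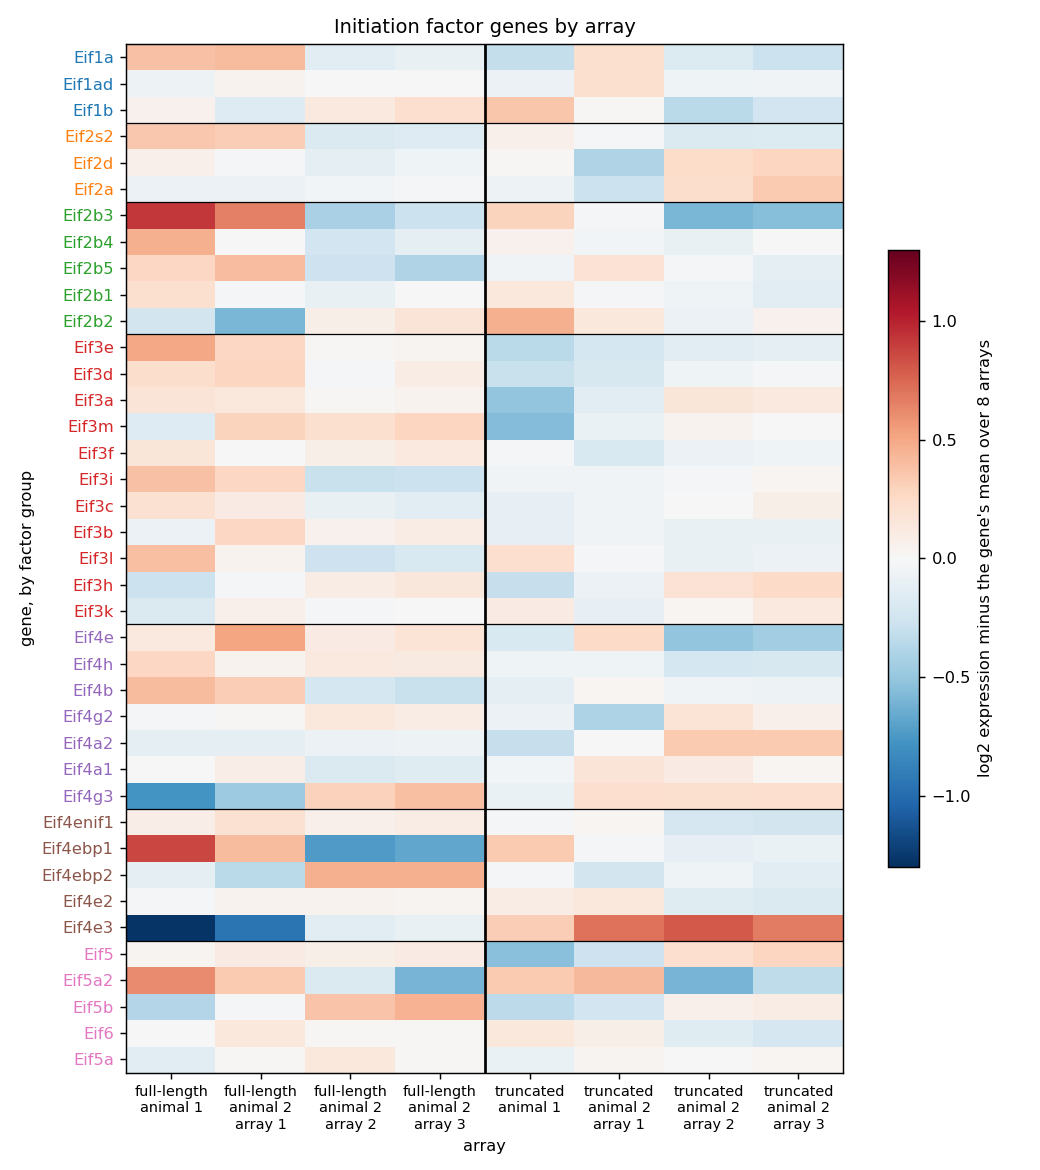
Log2 expression of the 39 tested initiation factor genes in each array (columns, 4 full-length then 4 truncated), minus the gene's mean over the 8 arrays (colour scale, red above and blue below), ordered by factor group. The first 2 full-length columns stand apart from the other 2 for Eif2b3, Eif4ebp1, Eif4g3 and Eif4e3, and only Eif4e3 is red in every truncated column and blue in every full-length one.

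The spread between arrays of one genotype was as large as the genotype difference for most of these genes. In the full-length mice both arrays numbered 1 lay above arrays 2 and 3 for 16 of the 39 genes and below them for 10. In the truncated mice these counts were 13 and 13. The same counts were not made over all genes, so they are not read as a trait of the factors. The step between the full-length pairs was larger than the genotype difference for 25 genes (64.1%), beside 57.3% of all genes. The genotype difference had 1 sign in both sets of arrays for 17 genes, of which 14 were lower and 3, Eif4e3, Eif3k and Eif4a1, were higher, and opposite signs for 22. This share of 1 sign was 43.6%, against 57.4% over all genes. The median difference of the factors was -0.17 in the arrays numbered 1, with 28 lower, and -0.05 in arrays 2 and 3, with 22 lower. Of the 24 genes with more than 1 probe set above the median of all probe sets, 14 had the same sign in all of them.

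**Figure D4:**
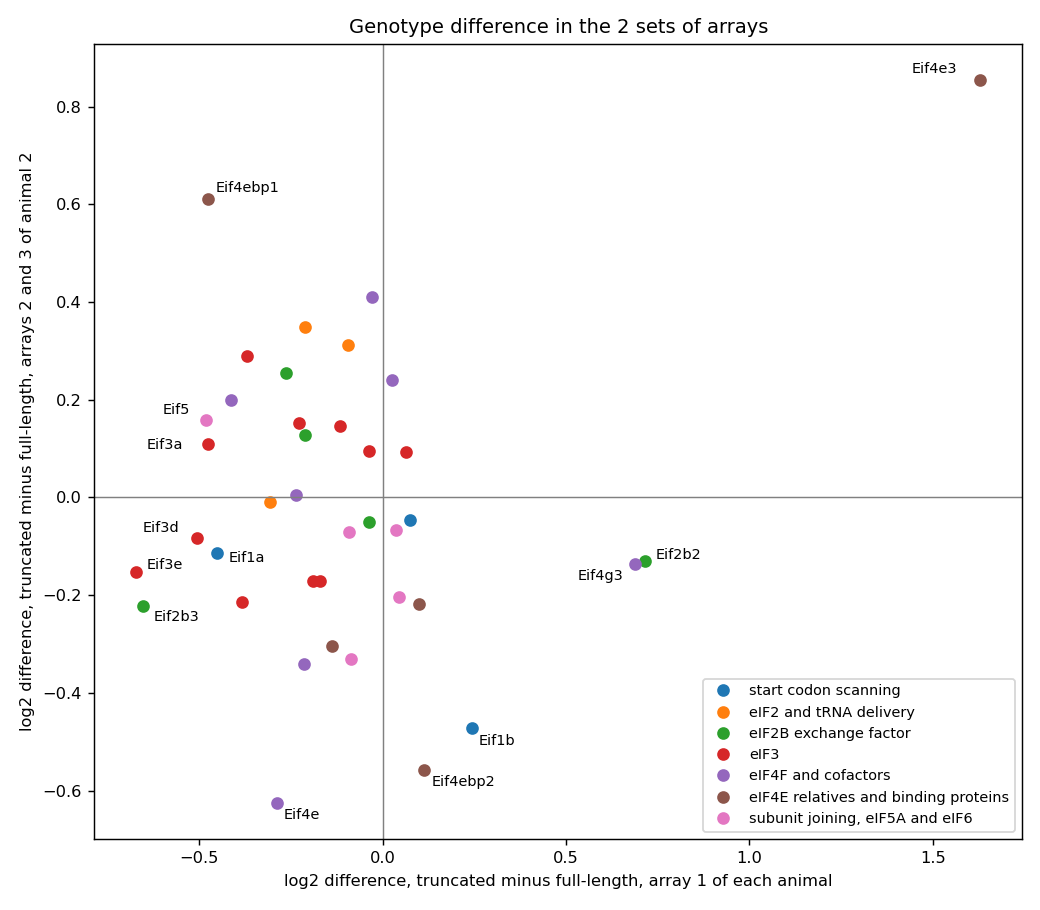
Log2 difference, truncated minus full-length, of the 39 genes in array 1 of each animal (horizontal, 2 arrays per genotype) against that in arrays 2 and 3 of animal 2 (vertical), coloured by factor group. Eif4e3 is high on both axes (1.63 and 0.85), Eif4ebp1 has opposite signs (-0.48 and 0.61), and most eIF3 genes lie left of 0 but on both sides of it vertically.

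The genes around initiation gave 0 calls at an adjusted p of 0.05 in limma in any of 6 lists. Of the eIF2 kinases and the stress response downstream of them, 8 of 13 genes were lower, with a median of -0.25. The median was -0.11 without the first full-length pair, -0.08 in the arrays numbered 1 and -0.00 in arrays 2 and 3. Chac1, counted as higher, was kept by the filter only through the truncated animals (5.06 and 4.94, against 4.09 and 4.70 in the full-length animals). Its direction was thus set by the filter. Where all 4 animals had to exceed the level, the median of the list was -0.40. Asns, asparagine synthetase and a target of ATF4, read 11.62, 11.68, 11.37 and 11.33 in the full-length arrays and 9.99, 9.95, 10.57 and 10.61 in the truncated ones. The groups were well apart, at -1.35 ± 0.25 (SE) with an adjusted p of 0.106 in limma. Trib3, a pseudokinase induced by the same response, read 8.58, 7.80, 5.56 and 5.29 against 5.71, 5.34, 5.93 and 5.85. Its difference of -1.69 (adjusted p = 0.418 in limma) had the first full-length pair as its high arrays, and in arrays 2 and 3 it was 0.46. At an unadjusted p of 0.05, Asns, Ddit3 (-0.69) and the kinase Eif2ak4 (-0.62), which senses uncharged tRNA, were lower and 0 of the 13 were higher, beside 5.3% lower and 8.82% higher over all genes.

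Of the cytosolic aminoacyl-tRNA synthetases, which charge tRNAs with amino acids, 18 of 20 genes were lower, with a median of -0.24. The lower genes numbered 19 in the arrays numbered 1, with a median of -0.38, and 9 in arrays 2 and 3, with a median of 0.03. The median was -0.06 without full-length animal 1 and 0.12 without the first full-length pair, so the direction of the list rested on that pair. Kars, the lysyl enzyme, read 10.79, 10.85, 10.64 and 10.68 in the full-length arrays and 9.79, 9.84, 10.09 and 10.06 in the truncated ones. The genotypes did not overlap, at -0.86 (adjusted p = 0.188 in limma), with -1.01 and -0.59 in the 2 sets of arrays. Aars, the alanyl enzyme, differed by -0.61 (adjusted p = 0.482 in limma), and its genotypes overlapped.

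Of the initiation partners and mTOR genes, 19 of 27 were lower, with a median of -0.11. Cyfip2, a partner of the fragile X protein, read 4.12, 3.48, 8.16 and 8.16 against 7.81, 7.82, 7.53 and 7.46. It was low in the first full-length pair only, which gave 2.35 overall (adjusted p = 0.288 in limma) and -0.66 in arrays 2 and 3. Rps6, the small subunit protein phosphorylated downstream of mTOR and also in the ribosomal protein list, differed by 0.71 (adjusted p = 0.258 in limma). At an unadjusted p of 0.05 these 2 genes were higher and 1, the ribosome recycling factor Abce1 (-0.71, adjusted p = 0.317 in limma), was lower. The genotypes overlapped for Abce1, with differences of -0.99 in the arrays numbered 1 and -0.11 in arrays 2 and 3. Its step between the full-length pairs, 0.996, was larger than its genotype difference. Elongation and release factors divided evenly, 6 higher, with Gspt2 among them, and 6 lower of 12, and their median was -0.02. The largest was 0.81 for the release factor Gspt2, which was kept by the filter only through the truncated animals (4.82 and 4.92, against 4.11 and 4.00 in the full-length animals), so that its direction was set by the filter and its p is not given. Eef1e1, a scaffold of the synthetase complex, differed by -0.63 (adjusted p = 0.326 in limma) and Hbs1l, a ribosome rescue factor, by -0.62 (adjusted p = 0.329). Eef1e1 and Hbs1l were past an unadjusted p of 0.05 in limma, and Gspt2 is left out of that count because of the filter. Of 8 mitochondrial translation factors 4 were lower, with -0.50 for Mtif2 and -0.49 for Gfm1 (adjusted p = 0.477 and 0.566 in limma). The 42 cytosolic ribosomal protein genes had a median of 0.01, with 20 lower. Their largest differences were 1.16 for Rpl27a and -0.84 for Rpl12 (adjusted p = 0.566 and 0.358 in limma). The one of Rpl27a came from truncated animal 1, at 9.67 against 7.38 to 7.61 in the other truncated arrays. The probe sets of Rpl27a, Rpl12 and Rps6 were dim for this list, with means of 7.69, 7.48 and 7.46 beside a median level of 12.94. Whether they measure the main transcripts of these genes was not tested.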

How the data were processed

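Total RNA of leukemic spleen cells was hybridised to Affymetrix mouse arrays, per the labels' protocols. The deposited table holds log2 expression of 45101 probe sets in 8 arrays. The submitters' processing notes name RMA, which normalizes arrays to each other and draws dim values together, while the base of the logarithm was inferred from the range of values. Of these probe sets 34945 had 1 gene symbol in the platform annotation, 932 several and 9160 none. Those with several or none were left out.

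The arrays of an animal, as labelled, were averaged, since the animal was the unit. The genotypes were compared in R 4.3.3 with limma 3.58.1 (lmFit, eBayes), over 11387 genes of which at least 2 of 4 animals exceeded the median over all probe sets (4.76), with Benjamini-Hochberg adjustment and 2 residual degrees of freedom. The fit was tested on simulated data with independent animals, which lacked the likeness of arrays across animals seen here. That test cannot show how the p values behave with such arrays. The smallest two-sided exact permutation p of 2 animals against 2 is 0.333, so none is given.

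The genes and lists were chosen with earlier results of these data known. Every initiation factor gene is named. Of these factor genes, array values are given for those past an unadjusted p of 0.05 in limma and those whose genotypes do not overlap. They are also given for the 2 with the largest differences in each factor group. Of each pathway list the 2 with the largest differences are named, some with array values. Abce1, Chac1, Ddit3, Eif2ak4, Hbs1l and the array values of Eif4ebp1 and of further probe sets were added after their values were seen. The array numbers of the labels were taken as a pairing for the replicate block. Deviations of same-numbered arrays from their genotype mean correlated at 0.231, 0.222 and 0.198. Arrays 2 and 3 correlated at 0.997 in each genotype, so these values mostly repeat 1 contrast, array 1 against the others. They cannot decide whether arrays 2 and 3 are matched by number. Alternatives were the random and replicate blocks, single arrays, filters, probe set choice, scaling and leave-outs.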

Additional observations from a re-analysis of the deposited data

Results flagged for a closer look

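In 3 of 78 sets of 4 arrays, 1 array stood apart from the other 3 by Dixon's criterion, which chance gives in about 1 of 20 sets. Eif4g3 in truncated animal 1 was 8.54, against 8.84 to 8.85 in the other truncated arrays. Eif1ad in array 1 of truncated animal 2 was 9.12, against 8.83 to 8.87. Eif4e2 in full-length animal 1 was 9.12, against 9.18 to 9.19.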

How the results depend on the processing

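A total of 21 alternatives were tried. Over all genes, 0 passed an adjusted p of 0.05 in limma on animal means, where 8.82% were higher and 5.3% lower at an unadjusted p of 0.05. The count was 345 with 8 arrays and the animal as a random block, 599 with the array number as a replicate block as well, 3004 with array 1 of each animal alone, 1 where all 4 animals had to exceed the level and 2 after centring. It ranged from 0 to 665 over the leave-outs, with 338 and 428 without arrays 2 or 3 of full-length animal 2 and 665 without that animal. Of the initiation factor genes 1, Eif4e3, passed with the replicate block, 5 passed with array 1 of each animal alone, and 0 to 1 passed over the leave-outs. The replicate block changed no other call among them. Their median difference ranged from -0.17 to -0.032 over the leave-outs, the latter without full-length animal 1, and was -0.019 without the first full-length pair of arrays, where 17 genes changed sign. A total of 11 genes kept 1 sign under every alternative: Eif1a, Eif3b, Eif3d, Eif3e, Eif3f, Eif3m, Eif4e, Eif4enif1 and Eif4h lower, Eif3k and Eif4e3 higher. With 2 animals per genotype, leaving one out rests on the assumption that the lone animal varies like the others. The number of arrays limits the precision.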
